A study of Mus musculus with 8 samples.

Results

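Colony-stimulating factors and inflammatory cytokines are secreted proteins through which a tumour can call up and steer blood and immune cells. 10 of their genes, Csf1, Csf2, Csf3, Tnf, Il6, Lif, Il11, Il1a, Il1b and Il33, were taken by gene symbol from the 24421 genes measured, and all 10 were found. The cells were of MCa-P1362, a mouse mammary carcinoma line raised from a tumour that arose without induction in a Balb/c female, and their RNA was sequenced in 8 libraries. A flow sorter had parted the line's cells by EpCAM, which epithelial cells carry on their surface for adhesion, and each group had 2 libraries: coculture EpCAM+, coculture EpCAM-, monoculture EpCAM+ and monoculture EpCAM-. All 4 groups were kept in high-glucose DMEM with fetal bovine serum, and the labels name no other treatment and no genetic change. Per the protocol, part of the pellets was snap-frozen directly from the sorter and part after a further culture with a passage, and it is not spelled out which of these is coculture and which is monoculture. The groups stand for 1 line, and nothing in the labels says that the 2 libraries of a group came from separate cultures, so the p-values below reflect no more than the spread between libraries of a group, and that spread may be technical.

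CSF1 keeps macrophages alive, GM-CSF (the product of Csf2) acts on granulocytes and macrophages, and G-CSF (the product of Csf3) drives the making of neutrophils. TNF and the IL-1 proteins signal to NF-kappaB, while IL-6, LIF and IL-11 share the receptor chain gp130 and signal to STAT3. IL-1 alpha and IL-33 are alarmins, released from damaged cells, and IL-1 beta must be cut by caspase-1 to become active. In mammary tumours such factors are known as products both of the carcinoma cells and of the fibroblasts and leukocytes around them.

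Levels are given in FPKM, which divides the fragments of a gene by transcript length and library size, so that values can be set side by side between genes, and the number of reads behind them is unknown. The FPKM sums of the libraries ran from 387489 to 414612, and 10634 to 11119 genes were at 1 FPKM or more. As FPKM is already divided by library size, these sums do not show how deeply the libraries were sequenced. The labelled fractions bore their markers: 12 epithelial markers, Epcam among them, summed to between 9743 and 10657 FPKM in EpCAM+ libraries and to between 19.3 and 34.9 FPKM in EpCAM- libraries. Of 14 fibroblast and mesenchymal markers the sum was between 10904 and 11215 FPKM in EpCAM- libraries, 191 to 194 FPKM in coculture EpCAM+ and 15.1 to 15.5 FPKM in monoculture EpCAM+. Leukocytes are a usual source of these cytokines, and 22 leukocyte markers summed to 23.7 to 23.9 FPKM in coculture EpCAM+, 6.49 to 6.86 FPKM in coculture EpCAM-, 18.0 to 19.6 FPKM in monoculture EpCAM+ and 8.64 to 8.92 FPKM in monoculture EpCAM-. Cd14 (mean 18.2, 5.34, 12.8 and 5.02 FPKM in the same order) and Kit (4.25, 0.0268, 4.71 and 0 FPKM) made up most of it in EpCAM+. The defining leukocyte genes Adgre1, Itgax and Cd3e were at 0 in all 8 libraries, and Ptprc was above 0 in 1 library, at 0.00552 FPKM. Of the macrophage markers in the list, Lyz2 was at 3.1 and 3.02 FPKM in monoculture EpCAM-, 0.156 and 0.427 FPKM in coculture EpCAM- and 0 in EpCAM+, and Cd68 ranged from 0.52 to 1.36 FPKM over the 8 libraries. The 7 endothelial markers summed to at most 1.27 FPKM.

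The members fell into opposite sets. Csf2, Csf3, Tnf, Lif, Il1a and Il33 were carried by EpCAM+ cells, while Csf1 and Il6 were higher in EpCAM- cells. Il11 stayed near or under 1 FPKM, and Il1b did not pass 0.0463 FPKM in any library. Of the 10 genes, 8 were tested among 12012 genes, those with 2 or more libraries at 1 FPKM or above; Il11 and Il1b did not reach that limit. The plot of FPKM by library shows how far apart the fractions lie.

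**Figure D1:**
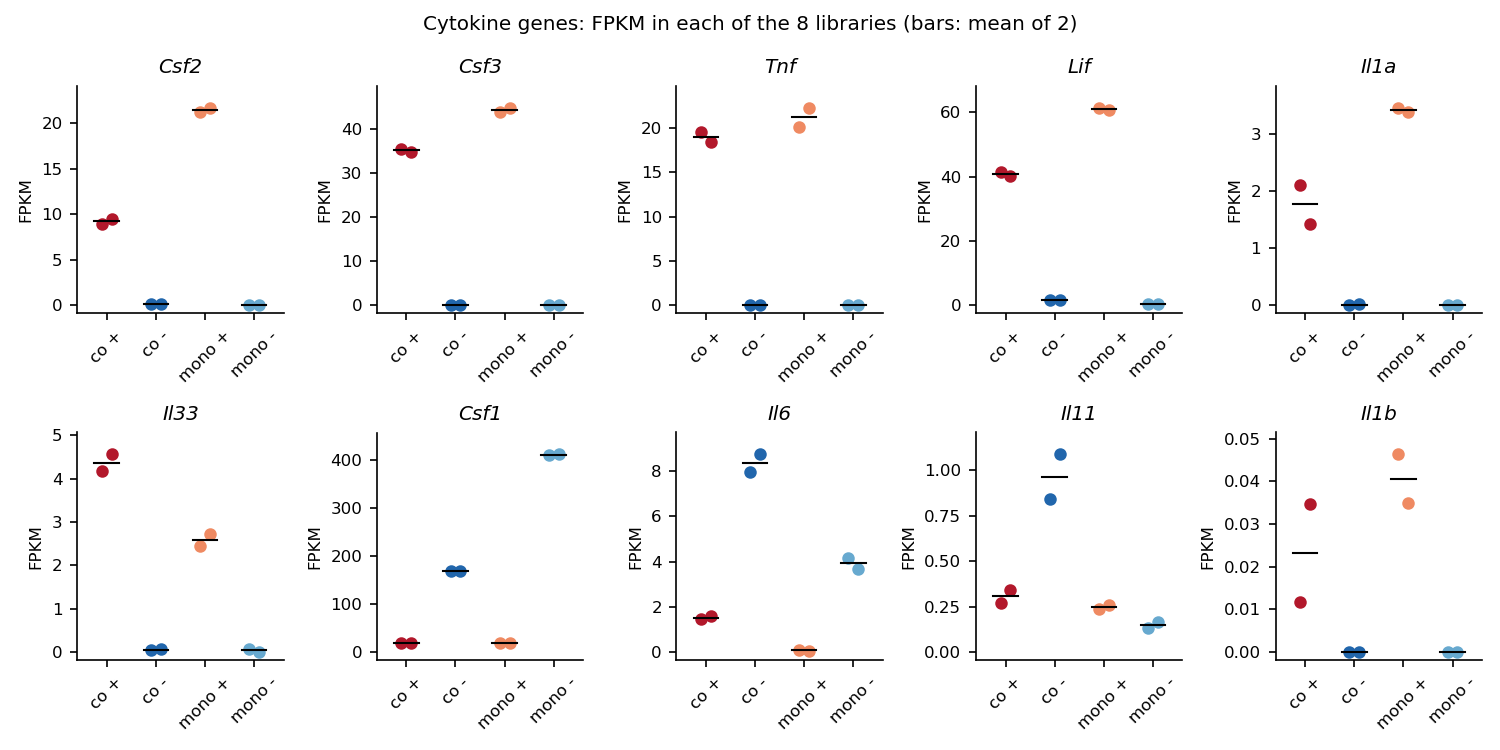
FPKM of the 10 genes in each of the 8 libraries, a panel per gene with its own linear axis; co and mono stand for coculture and monoculture, + and - for EpCAM+ and EpCAM-, points are libraries and bars the mean of 2. Csf2, Csf3, Tnf, Lif, Il1a and Il33 are high in EpCAM+, Csf1 and Il6 are high in EpCAM-, and the Il1b axis ends near 0.05 FPKM.

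Log2 fold changes are of FPKM + 1 and come from limma, fitted to all 8 libraries, with Benjamini-Hochberg adjustment of p-values over the 12012 genes; the added 1 understates changes of low genes. In coculture, all 8 tested members differed between EpCAM+ and EpCAM- at an adjusted p under 0.05, and all 8 by at least 2-fold, 6 higher in EpCAM+ and 2 lower. Of all genes tested, 87.2% passed the first rule (59.2% higher and 28.0% lower) and 26.5% the second, 16.5% higher and 10.1% lower. In monoculture the same counts held, 6 higher and 2 lower at 2-fold or more, against 87.9% of all genes at the first rule (55.4% higher and 32.4% lower) and 28.1% at the second (15.5% higher and 12.6% lower). The median log2 fold change of the 8 was 2.75 in coculture and 3.26 in monoculture, beside 0.26 and 0.23 over all genes tested. Csf2, Csf3, Tnf, Il1a and Il33 passed the limit of 1 FPKM through EpCAM+ libraries alone, the fraction where they were high, so these counts and medians are in part set by that limit and cover the tested members only. Scaling by the median of ratios moves the median of all genes by -0.26 in coculture and by -0.21 in monoculture, and turns the split of genes at 2-fold from 1976 higher and 1212 lower to 1488 and 1500 in coculture, and from 1860 and 1512 to 1444 and 1815 in monoculture. With 0.1 in place of 1 added to FPKM, log2 fold changes in coculture rose to 5.25 for Csf2, 7.32 for Csf3, 7.35 for Tnf, 4.01 for Il1a and 4.84 for Il33. No member changed its direction or its call between fractions under any scaling tried.

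Csf1 in EpCAM- libraries had the highest level of the 10 genes. In EpCAM+ libraries Lif and Csf3 exceeded it in both cultures, and Csf2 and Tnf did so in monoculture. In coculture EpCAM+ the mean of Tnf was 18.97 FPKM and that of Csf1 18.33 FPKM. Csf1 lies on chromosome 3 from 107741048 to 107760469 on the reverse strand of GRCm38. Its level was 169 and 168 FPKM in the coculture EpCAM- libraries and 410.1 and 412 FPKM in monoculture EpCAM-. In EpCAM+ it was 18.1 and 18.6 FPKM in coculture and 19.3 and 19.7 FPKM in monoculture. The groups did not overlap, and EpCAM- libraries stood above every EpCAM+ library. The mean in EpCAM- was 9.19-fold that of EpCAM+ in coculture and 21.1-fold in monoculture (log2 fold changes of EpCAM+ against EpCAM- of -3.13, SE 0.0223, adjusted p = 6.7e-12, and -4.33, SE 0.0223, adjusted p = 1.3e-12). In monoculture EpCAM- libraries 98.9% of tested genes had a lower mean than Csf1. The macrophage marker Lyz2 was highest in the same group, and its part in the result was not tested.

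Csf1 is a known product of fibroblasts, and its level in EpCAM+ libraries was read beside the fibroblast and mesenchymal markers there. Relative to EpCAM- libraries of the same culture, the 13 fibroblast and mesenchymal markers with enough signal had a median of 1.73% and 1.76% in the coculture EpCAM+ libraries and of 0.127% and 0.139% in monoculture EpCAM+. Csf1 in EpCAM+ was at 10.7% and 11.03% of the EpCAM- mean in coculture and at 4.69% and 4.79% in monoculture, above those shares in all 4 libraries. With the share subtracted, coculture EpCAM+ held 15.2 and 15.6 FPKM of Csf1 and monoculture EpCAM+ 18.8 and 19.1 FPKM. In bulk RNA fewer cells of a type and less RNA per cell cannot be told apart. Nor can marker RNA from EpCAM- cells be told from the same genes expressed by EpCAM+ cells, and the labels do not call EpCAM- cells fibroblasts. The share is thus a reading of markers and not a count of admixed cells.

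**Figure D2:**
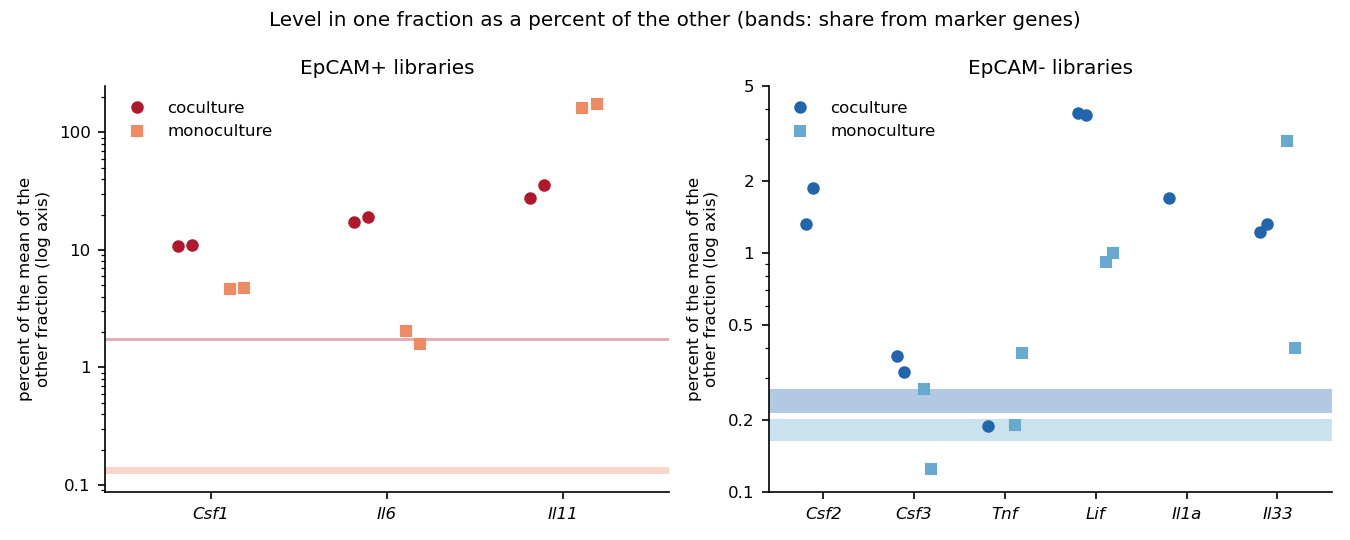
Level of each gene in a library of one fraction as a percent of the mean of the other fraction of the same culture, on a log axis; circles are coculture, squares monoculture, and bands span the share of the other fraction read from marker genes in the libraries of the same colour. Csf1 in EpCAM+ lies above the bands, Il6 in monoculture EpCAM+ (2.05% and 1.58%) lies above the monoculture band, and Csf3 and Tnf in EpCAM- lie near theirs; libraries at 0 (Csf2 and Il1a in monoculture EpCAM-, 1 coculture EpCAM- library each of Tnf and Il1a) cannot be drawn on this axis.

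The promoter of Csf1 is shown because it holds a match to the kappaB consensus, the motif bound by the NF-kappaB factors downstream of TNF and IL-1. Windows of the 250 bases before the RefSeq start were searched, and Csf1, Il6 and Lif were the searched members with a match. Csf3 had no window and was not searched. The Csf2 window lies before a RefSeq start at 54249899, upstream of the Csf2 span given below, so the bases next to that span were not searched. Of 32851 such windows of all genes, 7.25% hold a match on either strand, and Csf1, Il6 and Lif differ in which fraction expresses them. The stretch begins 180 bases and ends 100 bases before the start (RefSeq, GRCm38.p6), with the match, read on the opposite strand, in capitals.
Csf1, chr3:107760569-107760649, reverse strand: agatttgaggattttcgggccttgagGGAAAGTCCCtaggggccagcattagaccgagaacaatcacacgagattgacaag

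Csf2 was an EpCAM+ gene. It lies on chromosome 11 from 54247271 to 54249667 on the reverse strand. EpCAM+ libraries held 8.97 and 9.49 FPKM in coculture and 21.3 and 21.7 FPKM in monoculture. EpCAM- libraries held 0.122 and 0.172 FPKM in coculture and were listed at 0 in monoculture, so no group overlapped another. The coculture mean was 62.8-fold higher in EpCAM+ (3.16 on the log2 scale, SE 0.0493, adjusted p = 2.6e-10), and the log2 fold change in monoculture was 4.49 (adjusted p = 3.9e-11). Its chromosomal neighbour Il3, a related colony-stimulating factor whose nearest end lies 15.6 kb away, reached a mean of at most 0.0513 FPKM in any group.

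Csf3 had the highest log2 fold change between fractions of the tested members with 1 added to FPKM, while with 0.1 added Tnf was higher in coculture (7.35 against 7.32). It lies on chromosome 11 from 98701263 to 98703629 on the forward strand. EpCAM+ libraries held 35.6 and 34.9 FPKM in coculture and 44.0 and 44.8 FPKM in monoculture. EpCAM- libraries held 0.131 and 0.112 FPKM in coculture and 0.121 and 0.0554 FPKM in monoculture. The ratio of means was 289.9 in coculture (log2 fold change 5.01, SE 0.0448, adjusted p = 1.8e-11) and 504.6 in monoculture (log2 fold change 5.38, adjusted p = 1.1e-11), which placed Csf3 at rank 72 and rank 57 from the highest of 12012 genes. Without monoculture EpCAM- replicate 1 the latter ratio was 801. The 2 EpCAM- groups overlapped. Their Csf3 was 0.371% and 0.319% of the EpCAM+ level in coculture and 0.272% and 0.125% in monoculture, where 11 epithelial markers had medians of 0.22% and 0.264% in coculture and 0.167% and 0.199% in monoculture.

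Med24, which codes for a Mediator subunit and whose nearest end lies 0.962 kb from Csf3, was at 24.4 and 9.07 FPKM in EpCAM+ and EpCAM- of coculture and at 23.3 and 10.4 FPKM in monoculture. Csf2, Csf3 and Lif share chromosome 11, where the tested genes had a median log2 difference between EpCAM+ and EpCAM- of 0.50 in coculture and 0.47 in monoculture. Chromosome 3, which carries Csf1, had medians of 0.53 and 0.52 and chromosome 4 of 0.55 and 0.52, while the other chromosomes ranged from 0.10 to 0.30 in coculture and from 0.09 to 0.32 in monoculture. The part of this in the members' values was not tested.

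Tnf, which codes for tumour necrosis factor, followed the EpCAM+ pattern. It lies on chromosome 17 from 35199381 to 35202007 on the reverse strand. EpCAM+ libraries held 19.5 and 18.4 FPKM in coculture and 20.1 and 22.2 FPKM in monoculture. EpCAM- libraries held 0 and 0.0359 FPKM in coculture and 0.0404 and 0.0812 FPKM in monoculture. The log2 fold changes were 4.29 in coculture (SE 0.0609, adjusted p = 1.5e-10) and 4.38 in monoculture (adjusted p = 1.3e-10), and the ratio of means in monoculture was 348, or 525 without monoculture EpCAM- replicate 2. The adjoining genes of the lymphotoxins were low: Lta, 1.16 kb away, had means of at most 0.381 FPKM, and Ltb, 3.06 kb away, 0.636 and 0.514 FPKM in EpCAM+ of coculture and monoculture against 0.0136 and 0.0121 FPKM in EpCAM-.

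The promoters of Tnf and Il1a are printed because these EpCAM+ genes hold the letters TATAAA of the TATA box on the strand of the gene. Il1b and Il33 hold them too, as do 7.59% of all 32851 windows, and Csf3 was not searched. Both stretches begin 150 bases and end 21 bases before the RefSeq start (GRCm38.p6), and the capitals mark TATAAA, at 29 to 24 bases before the start of Tnf and 32 to 27 before that of Il1a.
Tnf, chr17:35202028-35202157, reverse strand: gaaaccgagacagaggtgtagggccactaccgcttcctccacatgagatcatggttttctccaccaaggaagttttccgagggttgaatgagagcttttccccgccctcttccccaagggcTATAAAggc
Il1a, chr2:129309993-129310122, reverse strand: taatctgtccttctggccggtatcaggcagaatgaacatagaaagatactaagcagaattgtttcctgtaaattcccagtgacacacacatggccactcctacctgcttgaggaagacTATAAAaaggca

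Il6 was higher in EpCAM- cells in both cultures and had the largest log2 change with culture in EpCAM+ of the tested members. It lies on chromosome 5 from 30013114 to 30019981 on the forward strand. EpCAM- libraries held 7.97 and 8.74 FPKM in coculture and 4.17 and 3.7 FPKM in monoculture. EpCAM+ libraries held 1.44 and 1.6 FPKM in coculture and 0.0804 and 0.0622 FPKM in monoculture. No group overlapped another, in the order coculture EpCAM-, monoculture EpCAM-, coculture EpCAM+, monoculture EpCAM+. The EpCAM- mean was 5.5-fold that of EpCAM+ in coculture (log2 fold change of EpCAM+ against EpCAM- -1.89, SE 0.0684, adjusted p = 3.9e-08) and 55.2-fold in monoculture (-2.20, adjusted p = 1.4e-08). Coculture EpCAM+ held 17.2% and 19.1% of the EpCAM- mean, against the fibroblast marker share of 1.73% and 1.76% there, and 1.29 and 1.45 FPKM were left with that share subtracted.

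The promoter of Il6 is shown because its window holds 1 match each for kappaB, AP-1 and C/EBP, the factor families classically tied to its induction. The stretch below begins 250 bases and ends 21 bases before the RefSeq start (GRCm38.p6), and the capitals mark, in order, AP-1 (TGANTCA, 249 to 243 bases before the start), C/EBP (TTGCNNAA, read on the opposite strand, 128 to 121) and kappaB (44 to 35), with no overlap between them. Of all windows 6.75% hold the AP-1 letters and 9.56% the C/EBP letters on either strand. A match describes letters and is not shown to be a site.
Il6, chr5:30012864-30013093, forward strand: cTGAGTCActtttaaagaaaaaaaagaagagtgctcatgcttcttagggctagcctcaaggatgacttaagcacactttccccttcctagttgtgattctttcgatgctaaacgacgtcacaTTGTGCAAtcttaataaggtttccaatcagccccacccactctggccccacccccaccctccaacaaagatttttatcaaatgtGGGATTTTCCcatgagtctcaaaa

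Lif had the highest level of the EpCAM+ members. It lies on chromosome 11 from 4257557 to 4272514 on the forward strand, and its window holds a kappaB match 178 to 169 bases and an AP-1 match 228 to 222 bases before the RefSeq start. EpCAM+ libraries held 41.6 and 40.2 FPKM in coculture and 61.3 and 60.5 FPKM in monoculture. EpCAM- libraries held 1.58 and 1.54 FPKM in coculture and 0.558 and 0.61 FPKM in monoculture. The ratio of means was 26.2 in coculture (log2 fold change 4.03, SE 0.0376, adjusted p = 2.2e-11) and 104 in monoculture (5.29, adjusted p = 4.5e-12), and no groups overlapped. In coculture EpCAM- libraries Lif was at 3.86% and 3.78% of the EpCAM+ mean, above the epithelial marker shares of 0.22% and 0.264%. Osm, which codes for the related gp130 cytokine oncostatin M and lies 16.5 kb from Lif, was at 0 in all libraries.

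Il11, the third gp130 cytokine of the set, lies on chromosome 7 from 4772373 to 4782859 on the reverse strand. It was highest in coculture EpCAM-, at 0.844 and 1.09 FPKM, and ranged from 0.132 to 0.344 FPKM in the other 6 libraries. Coculture EpCAM- thus stood above all others, with a mean 3.16-fold that of coculture EpCAM+ and 6.51-fold that of monoculture EpCAM-. As Il11 missed the level needed for testing, its values from the fit without that limit are given apart: limma gave a log2 fold change of EpCAM+ against EpCAM- of -0.59 in coculture (SE 0.062, adjusted p = 2.1e-04) and 0.12 in monoculture (adjusted p = 0.142).

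Of the IL-1 family, Il1a and Il33 were EpCAM+ genes, and Il1b was near 0 in every library. Il1a lies on chromosome 2 from 129299610 to 129309972 on the reverse strand. EpCAM+ libraries held 2.1 and 1.42 FPKM in coculture and 3.45 and 3.38 FPKM in monoculture. Of the EpCAM- libraries 3 were at 0 and 1 coculture library was at 0.03 FPKM. The log2 fold changes were 1.43 in coculture (SE 0.103, adjusted p = 3e-06) and 2.14 in monoculture (adjusted p = 2.1e-07). The coculture EpCAM+ pair was the least alike of the members at that level, with an SD of 0.481 on a mean of 1.76 FPKM.

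Il1b, on chromosome 2 from 129364570 to 129371139 and 54.6 kb from Il1a, was between 0.0118 and 0.0463 FPKM in the 4 EpCAM+ libraries and at 0 in the 4 EpCAM- libraries. Casp1, which codes for the protease that activates IL-1 beta, was measured at 6.91 ± 0.0856 FPKM (SD, n = 2) in coculture EpCAM+, 2.22 ± 0.228 FPKM in monoculture EpCAM+ and at most 0.131 FPKM in the EpCAM- libraries.

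Il33 lies on chromosome 19 from 29925114 to 29960718 on the forward strand. EpCAM+ libraries held 4.18 and 4.56 FPKM in coculture and 2.44 and 2.72 FPKM in monoculture. EpCAM- libraries held 0.0538 and 0.058 FPKM in coculture and 0.0759 and 0.0103 FPKM in monoculture, and these 2 groups overlapped. The log2 fold changes were 2.35 in coculture (SE 0.0641, adjusted p = 6.9e-09) and 1.78 in monoculture (adjusted p = 3.4e-08), with ratios of means of 78.1 and 59.9. The latter was 250.2 without monoculture EpCAM- replicate 1 and 34.0 without replicate 2 of that group. Of the tested members, Il33 and Il6 were those whose EpCAM+ level was higher in coculture than in monoculture.

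The comparison of monoculture with coculture asks how the fractions differ with the culture they came from. In EpCAM+, 5 of the 8 tested members were higher in monoculture, 2 were lower and Tnf did not pass the test, where 51.4% of all genes passed (16.4% higher and 34.9% lower). At 2-fold or more it was Csf2, higher, and Il6, lower, where 1.94% of all genes passed, 0.266% higher and 1.67% lower. Under quantile normalization the split of all genes at 2-fold went from 32 higher and 201 lower to 49 and 152. Csf2 had a mean 2.32-fold that of coculture (log2 fold change 1.13, SE 0.0493, adjusted p = 1.7e-06), rank 20 from the highest of 12012. Il6 in coculture was 21.3-fold the monoculture mean (log2 fold change of monoculture against coculture -1.23, SE 0.0684, adjusted p = 6.2e-06). With 0.1 in place of 1 added to FPKM, the log2 fold change of Il6 was -3.24.

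The other calls in EpCAM+ were smaller. Lif rose by 0.56 on the log2 scale (adjusted p = 1.6e-05 by limma), Il1a by 0.69 (adjusted p = 0.00108), Csf3 by 0.33 (adjusted p = 7.2e-04), and Il33 fell by 0.58 (adjusted p = 2.2e-04). Lif, Il1a and Csf3 thus moved with Csf2, and Il33 with Il6, in monoculture against coculture. The Csf3 call was lost with 0.1 added to FPKM (limma, adjusted p = 0.104). Csf1 rose by 0.08 (adjusted p = 0.0161), a call lost without trend in limma (adjusted p = 0.0538), in a fit of the 4 EpCAM+ libraries alone (0.0778), without coculture EpCAM+ replicate 1 (0.0942) and without monoculture EpCAM+ replicate 2 (0.0879). The log2 fold change of Csf1 was 0.28 with the fibroblast marker share subtracted. The value for Tnf was 0.15 (limma, adjusted p = 0.0725), which passed under the median of ratios (0.20, adjusted p = 0.0266), under quantile normalization (0.22, adjusted p = 0.0222) and without monoculture EpCAM+ replicate 1 (0.22, adjusted p = 0.0386).

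In EpCAM-, 4 of the 8 passed the test, 1 higher and 3 lower in monoculture, where 62.7% of all genes passed (32.4% higher and 30.3% lower), and 1 passed at 2-fold, where 4.52% did (2.56% higher and 1.96% lower). That gene was Csf1, with a mean 2.44-fold that of coculture (log2 fold change 1.28, SE 0.0223, adjusted p = 7.3e-09 by limma), rank 186 from the highest. Il6 fell by 0.92 (adjusted p = 1.2e-05) and Lif by 0.69 (adjusted p = 2.2e-06), to means that coculture exceeded 2.13-fold and 2.67-fold. Il11 went the same way, with the untested level 6.51-fold higher in coculture. Csf2 fell by 0.20 (adjusted p = 0.0088), from 0.147 FPKM to 0, a call lost without coculture EpCAM- replicate 2 (limma, adjusted p = 0.0519). Csf3, Tnf, Il1a and Il33, at most 0.131 FPKM in EpCAM-, had log2 fold changes between -0.04 and 0.06 that did not pass. With 0.1 in place of 1 added to FPKM, Csf2 at -1.30, Lif at -1.28 and Il6 at -1.07 also passed at 2-fold.

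**Figure D3:**
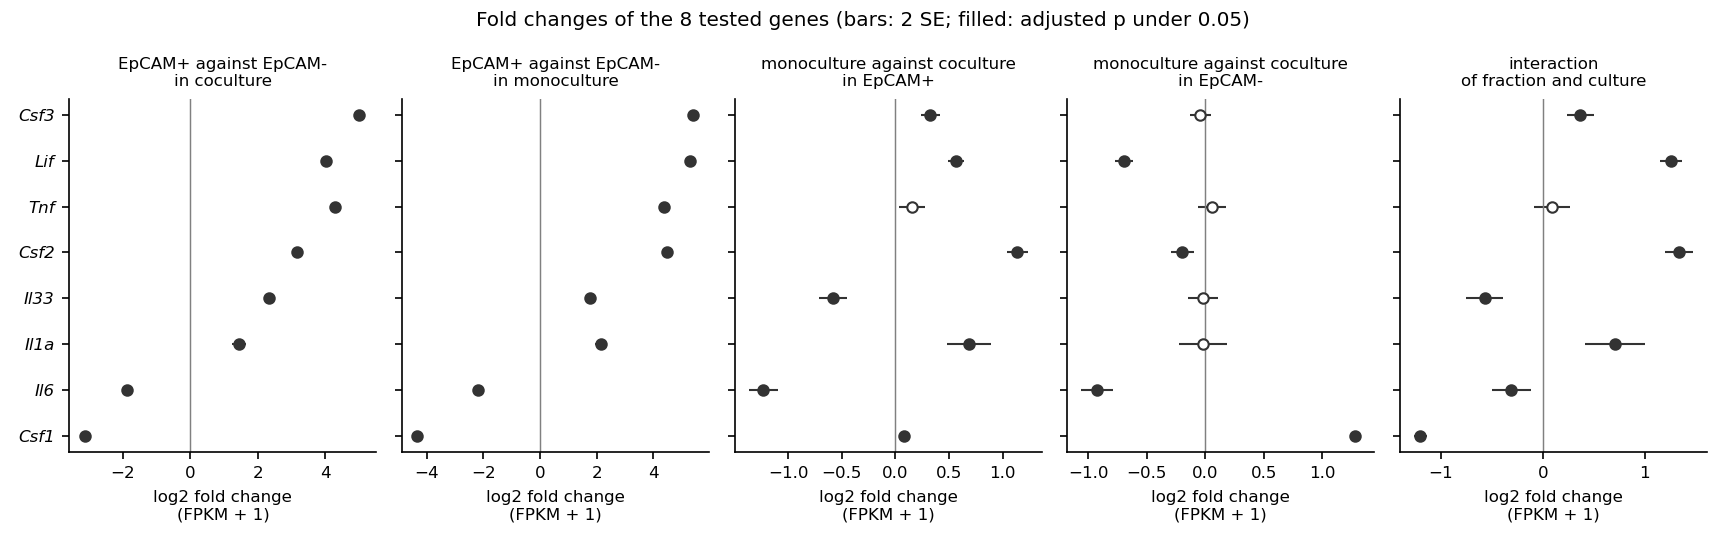
Log2 fold change of FPKM + 1 of the 8 tested genes in the 5 comparisons, each panel with its own linear axis; points are limma estimates, bars 2 standard errors either side, and filled points passed an adjusted p of 0.05. Fractions differ for all 8 genes, with Csf1 and Il6 to the left; Csf2 has the highest change with culture in EpCAM+ (1.13) and Csf1 in EpCAM- (1.28).

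Whether culture moved a gene unequally in the fractions was tested as an interaction, monoculture against coculture in EpCAM+ minus the same in EpCAM-. Of the 8 members, 7 passed, 4 positive and 3 negative, where 65.2% of all genes passed (26.0% positive and 39.2% negative), and 3 passed at 2-fold, where 8.09% did (2.43% positive and 5.66% negative). They were Csf2 at 1.33 (SE 0.0697, adjusted p = 2.3e-06 by limma), Lif at 1.26 (SE 0.0531, adjusted p = 8.2e-07) and Csf1 at -1.20 (SE 0.0315, adjusted p = 1e-07). Lif rose with monoculture in EpCAM+ and fell in EpCAM-, so that its fractions lay further apart in monoculture. Csf1 rose in EpCAM- and changed little in EpCAM+, and with the marker share subtracted its interaction was -1.0. Quantile normalization moves the median interaction of all genes by 0.11, and their split at 2-fold from 292 positive and 680 negative to 370 and 495.

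For Il6 the size of the interaction depends on the scale. On log2(FPKM + 1) it was -0.31 (SE 0.0967, adjusted p = 0.0235 by limma), and the call was lost under the median of ratios (adjusted p = 0.0742), under quantile normalization (0.646), with the marker share subtracted (0.0705) and without any 1 of 4 libraries: coculture EpCAM+ replicate 2 (0.0758), coculture EpCAM- replicate 1 (0.0776), monoculture EpCAM+ replicate 2 (0.0614) and monoculture EpCAM- replicate 1 (0.0743). With 0.1 added to FPKM it was -2.17 (adjusted p = 1.7e-05), and as ratios of means, coculture exceeded monoculture 21.3-fold in EpCAM+ and 2.13-fold in EpCAM-. Fold changes of other members with a fraction near 0 also grew with 0.1 added: the interaction of Csf2 was 2.51, that of Lif 1.86, that of Csf3 0.59 and that of Il1a 1.13. The interaction of Il33 was -0.57 (limma, adjusted p = 9.4e-04), and its call was lost with 0.1 added (adjusted p = 0.129).

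The receptors decide which of these ligands the same cells could sense. Of 15 receptor genes of the members, 10 were tested, 5 stayed under 1 FPKM in every library and 2 of these, Csf3r and Il1r2, were at 0 in all. In coculture 2 receptors were higher in EpCAM+ and 6 lower (limma, adjusted p under 0.05), in monoculture 1 and 7, with median log2 fold changes of -0.29 and -1.06 beside 0.26 and 0.23 over all genes. Over all genes 59.2% were higher and 28.0% lower in coculture, and 55.4% and 32.4% in monoculture, and these shares stand beside the counts of the lists that follow as well. The list was chosen with earlier results of these data known, as were those below.

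Among the receptor genes of the colony-stimulating factors, Csf2ra was the one that reached 1 FPKM. Csf1r, the receptor of CSF1, was at most 0.2 FPKM in any library. Csf2ra, the alpha chain of the GM-CSF receptor, had means of 2.35, 3.04, 1.62 and 1.52 FPKM in coculture EpCAM+, coculture EpCAM-, monoculture EpCAM+ and monoculture EpCAM-. Csf2rb, the signalling chain, was at most 0.00711 FPKM, and reads shared with its near-identical copy Csf2rb2 (at most 0.00648 FPKM) leave both uncertain. Il34, a second ligand of the CSF1 receptor, was an EpCAM+ gene, at means of 4.54 and 5.76 FPKM in EpCAM+ of coculture and monoculture against 0.597 and 0.398 FPKM in EpCAM- (log2 fold change in monoculture 2.28, adjusted p = 1.1e-08 by limma).

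Receptors of TNF and of the gp130 cytokines were measured in both fractions. Tnfrsf1a, the broadly expressed TNF receptor, was 29.97 ± 0.881 FPKM in coculture EpCAM+ and 74.1 ± 0.12 FPKM in coculture EpCAM- (SD, n = 2), a log2 fold change of -1.28 (adjusted p = 1.3e-09 by limma), and the log2 fold change in monoculture was -1.69 (adjusted p = 2.5e-10). Il6st, which codes for gp130, had means of 19.4 FPKM in EpCAM+ of each culture, 47.7 FPKM in coculture EpCAM- and 73.9 FPKM in monoculture EpCAM- (log2 fold change in monoculture -1.88, adjusted p = 3.8e-10). Il6ra was at 1.79, 2.45, 0.901 and 3.96 FPKM, and Lifr at 1.79, 0.966, 1.17 and 1.93 FPKM, in coculture EpCAM+, coculture EpCAM-, monoculture EpCAM+ and monoculture EpCAM-. Il11ra1 was lower in EpCAM+ (log2 fold changes -1.87 and -2.89), a value made uncertain by near-identical copies of that gene.

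The IL-33 receptor chain Il1rl1, also called ST2, stood out by group. Its level was 13.0 and 13.0 FPKM in the coculture EpCAM- libraries and between 1.58 and 1.78 FPKM in the other 6. It fell by 2.35 on the log2 scale from coculture to monoculture in EpCAM- (adjusted p = 1.5e-08 by limma), with an interaction of 2.35 (adjusted p = 1.5e-07). In coculture the ligand Il33 was thus measured in EpCAM+ and the higher Il1rl1 level in EpCAM-. Il1r1, the IL-1 receptor, rose in EpCAM- by 1.43 in monoculture (adjusted p = 9.8e-07), from a mean of 2.17 to 7.56 FPKM. Il1rap, the chain shared by both receptors, was higher in EpCAM+ in coculture (17.7 against 3.65 FPKM, log2 fold change 2.01, adjusted p = 4.6e-10) and in monoculture (22.8 against 4.82 FPKM, 2.03, adjusted p = 4e-10).

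**Figure D4:**
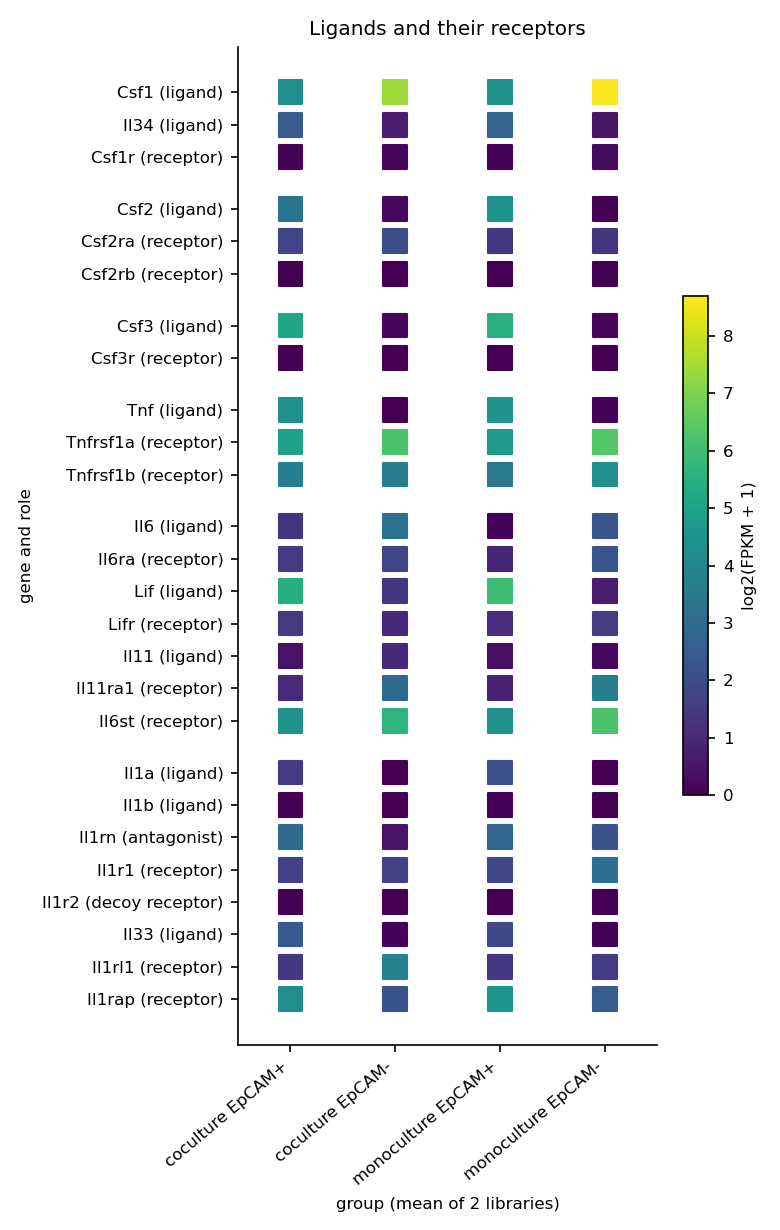
Mean log2(FPKM + 1) of ligands, receptors and antagonists in the 4 groups, each square a mean of 2 libraries and its colour the level. Csf1r, Csf2rb and Csf3r are near 0 in all groups while their ligands are not, and Il1rl1 is highest in coculture EpCAM-.

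Of 14 genes that block or process the members' products, 11 were tested. In coculture 8 were higher in EpCAM+ and 3 lower, and in monoculture 7 and 4, where 87.2% and 87.9% of all genes passed. At 2-fold or more it was 8 and 7 of the 11, where 26.5% and 28.1% of all genes passed. Sigirr, Rhbdf2, Casp1, Casp4 and Gsdmd passed the limit of 1 FPKM only through the fraction where they were high. These counts are thus in part set by that limit. Il1rn, which codes for the IL-1 receptor antagonist, was 6.54 and 7.14 FPKM in coculture EpCAM+, 0.405 and 0.375 FPKM in coculture EpCAM-, 6.38 and 5.45 FPKM in monoculture EpCAM+ and 3.81 and 3.29 FPKM in monoculture EpCAM-. Its fractions were far apart in coculture (log2 fold change 2.50, adjusted p = 2.3e-08 by limma) and closer in monoculture (interaction -1.89, adjusted p = 5.5e-06). Sigirr, an inhibitory receptor of the IL-1 family, was higher in EpCAM+ in coculture by 3.21 on the log2 scale. Rhbdf2, a cofactor of the protease that sheds TNF, was higher there by 2.93. In monoculture EpCAM+ their means were 4.88 and 8.05 FPKM, against 0.101 and 0.124 FPKM in monoculture EpCAM-. Casp1 was higher by 2.82 in coculture and fell by 1.30 from coculture to monoculture in EpCAM+ (adjusted p = 2.3e-06). Gsdmd, whose product forms the pore through which IL-1 beta leaves cells, was lower in EpCAM+ in both cultures. Its means were 0.384 against 10.3 FPKM in monoculture (log2 fold change -3.03) and 0.562 against 5.6 FPKM in coculture. Mmp14 and Capn2, proteases, were also lower in EpCAM+, with log2 fold changes of -1.72 and -1.54 in monoculture. In coculture EpCAM+ they held means of 92.0 and 84.5 FPKM, against 232 and 186 FPKM in coculture EpCAM-.

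Other cytokine ligands were mostly silent: of 43 in the files, 28 stayed under 1 FPKM in every library and 11 of these were at 0 in all. Of the 15 tested, 9 were higher in EpCAM+ and 5 lower in coculture, and 9 and 6 in monoculture, a share near the 87.2% and 87.9% of all genes that passed. Il7, Il23a, Il24, Il34, Tnfsf10, Tnfsf12, Tslp and Flt3l among them passed the limit of 1 FPKM only through the fraction where they were high. The counts of this list are thus also in part set by that limit. Il23a, a subunit of IL-23, was at 12.0 and 10.9 FPKM in coculture EpCAM+ and 8.26 and 8.62 FPKM in monoculture EpCAM+, and at most 0.0486 FPKM in EpCAM-; Il12b, which codes for its partner subunit, was at 0 in all libraries. Ctf1, which codes for the gp130 cytokine cardiotrophin 1, was an EpCAM+ gene (log2 fold changes 3.30 and 3.54), while Tnfsf12, which codes for TWEAK, was an EpCAM- gene (-2.70 and -3.75). Clcf1, another gp130 cytokine, rose by 1.02 in EpCAM+ from coculture to monoculture (adjusted p = 7.4e-06 by limma), from a mean of 16.0 to 33.6 FPKM. Kitl, which codes for stem cell factor, had an interaction of -1.07 (adjusted p = 7.2e-06).

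All 23 genes of the signal path from the IL-1, TNF and IL-6 receptors were tested. In coculture 14 were higher in EpCAM+ and 4 lower, in monoculture 13 and 9, with medians of 0.49 and 0.24 beside 0.26 and 0.23 over all genes. Relb, Rela, Nfkb1 and Nfkb2, which code for NF-kappaB subunits, were higher in EpCAM+ in both cultures. On the log2 scale Relb was higher by 1.57 in coculture and 2.01 in monoculture, Rela by 1.17 and 1.03, Nfkb1 by 1.16 and 1.17, and Nfkb2 by 0.87 and 1.56. The subunit gene Rel was not in the list. Tnfaip3, which codes for the NF-kappaB inhibitor A20, was 22.2 FPKM in coculture EpCAM+, 9.16 FPKM in coculture EpCAM-, 35.4 FPKM in monoculture EpCAM+ and 2.4 FPKM in monoculture EpCAM-, with an interaction of 2.23 (adjusted p = 2.6e-07 by limma). Stat3 fell by 1.10 from coculture to monoculture in EpCAM+ (adjusted p = 1.1e-07), from a mean of 52.3 to 23.8 FPKM, and was 31.2 and 31.0 FPKM in EpCAM-. Irak2, a kinase of the IL-1 path, was lower in EpCAM+ in monoculture (-1.34), and Cebpd had an interaction of -1.13 (adjusted p = 7.2e-06).

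Of 10 regulators of cytokine mRNA decay, 7 passed in coculture, each higher in EpCAM+, and all 10 in monoculture, 9 higher and 1 lower (limma, adjusted p under 0.05), beside 87.2% and 87.9% of all genes. Zfp36l1, which promotes decay of AU-rich transcripts, was higher by 2.85 and 2.18 on the log2 scale, and Arid5a, which stabilises Il6 mRNA, by 1.92 and 2.39. Zfp36, which codes for tristetraprolin, the decay factor of Tnf mRNA, was lower in EpCAM+ in monoculture (-1.51, adjusted p = 3.8e-09), at 18.6 against 54.8 FPKM, with an interaction of -1.44 (adjusted p = 4.7e-07).

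For each tested member the 2 genes with the nearest profile over the 8 libraries were sought, by Euclidean distance between log2(FPKM + 1) values centred on the gene's mean. For Csf1 they were Figf and Tmem37 (distances 0.46 and 0.47), for Csf2 Aldh1a3 and St8sia2 (0.49 and 0.64) and for Csf3 Ppl and Plet1 (0.37 and 0.40). For Tnf they were Ppp1r14c and Als2cl (0.20 and 0.24), and for Lif Sox11 and Pdgfb (0.42 and 0.44). The nearest to Il33 was Acox2 (0.13). Il1a was nearest to Ramp3 and to the cytokine gene Il24 (0.31 and 0.36). Il6 had the most distant neighbours, Adm2 and Eno2 (0.76 and 0.88). Aldh1a3, the gene nearest to Csf2, was at means of 29.3 and 60.1 FPKM in EpCAM+ of coculture and monoculture, beside 2.24 and 1.22 FPKM in EpCAM-.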

How the data were processed

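RNA of 8 libraries was measured, 2 in each of 4 groups taken from the titles. The deposited values are FPKM per gene, as the authors made them; per the submitters' processing notes, FastQC, cutadapt, HISAT2, SAMtools, HTSeq and edgeR were used with build mm10, without versions. Not given in the sources used here are the tool that wrote the FPKM and any scaling between libraries, so depth is unknown; steps in the low values put it at 0.909 to 1.16 times that of the monoculture EpCAM+ library numbered 1. The 12012 genes that reached 1 FPKM in 2 or more libraries were tested on log2(FPKM + 1) with limma 3.58.1 in R 4.3.3, as means of 4 groups over 8 libraries with 4 residual degrees of freedom and eBayes with trend, two-sided, adjusted by Benjamini-Hochberg. For 2 libraries against 2, the smallest p of an exact permutation test is 0.333. Genes were called at an adjusted p under 0.05, and counted again at 2-fold or more. The fit was tested on simulated data. The members and lists were chosen with earlier results of these data known. Named were all 10 members, their 2 nearest profiles, and per list and comparison up to 4 genes at 2-fold or more with the highest changes whose higher group had a mean of 5 FPKM or more; receptors, neighbouring genes and other values outside this rule were named after they were seen. The other neighbour of Il33 is not reported here. The share of the other fraction is the median, over marker genes, of the level in a library as a percent of the mean in the other fraction of its culture. Positions are from GENCODE and promoters from RefSeq, both on GRCm38, the same assembly as mm10. A promoter window was at hand for 9 of 10 members, all but Csf3, and 2 of the 9 had a pair of starts. The kappaB consensus was searched with AP-1, C/EBP, STAT (TTCNNNGAA) and the cyclic AMP response element (TGACGTCA) on both strands, and TATAAA on the gene's strand. Alternatives were other pseudocounts (0.1 and 0.5), filters (none and 5 FPKM), scalings, moderation, a replicate block, fewer libraries and the share of the other fraction subtracted. Python 3.11.15, pandas 2.3.3, NumPy 2.4.6, SciPy 1.17.1 and matplotlib 3.10.9 made the tables and figures.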

Additional observations from a re-analysis of the deposited data

Results flagged for a closer look

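These genes changed with culture by different amounts in the fractions, tested as the interaction (change from coculture to monoculture in EpCAM+ minus that in EpCAM-, log2 scale, limma with Benjamini-Hochberg adjustment). Among the members the values were 1.33 for Csf2, 1.26 for Lif, 0.71 for Il1a, 0.37 for Csf3, -0.31 for Il6, -0.57 for Il33 and -1.20 for Csf1. Of all tested genes 65.2% passed the same rule. Il1a, Csf3 and Il33 were at most 0.131 FPKM in EpCAM-, so their values mostly repeat the change in EpCAM+ (0.69, 0.33 and -0.58). The calls of Il6 and Il33 were lost under alternatives given above. Among the other named genes, those at 2-fold or more are given. Positive values were 2.35 for Il1rl1 and 2.23 for Tnfaip3. Negative values were -1.89 for Il1rn, -1.44 for Zfp36, -1.27 for Il1r1, -1.15 for Casp1, -1.13 for Cebpd, -1.09 for Stat3, -1.07 for Kitl, -1.05 for Tnfsf12 and -1.02 for Il11ra1. Groups of 2 libraries are too small for a search for outlying libraries.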

How the results depend on the processing

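Of 782 values for the members' fold changes under the alternatives, 762 kept their direction and their side of the threshold, 14 lost the call, 3 gained it and 3 changed sign, and all 1049 values of the other named genes kept both. Adding 0.1 in place of 1 moved the counts: at 2-fold, all genes went from 233 to 562 (culture in EpCAM+), from 543 to 910 (culture in EpCAM-) and from 972 to 1613 (interaction), and members from 1 to 4 (culture in EpCAM-) and from 3 to 5 (interaction). The signs that changed were of Tnf in the interaction (0.09 to -0.29, same setting) and of Il33 with culture in EpCAM- (-0.018 to 0.016 by quantile normalization, and between -0.064 and 0.027 with 1 library left out, positive without monoculture EpCAM- replicate 2), none of them called; the cause was not tested. Leaving out each library in turn left 6 to 8 members called with culture in EpCAM+, 3 to 4 in EpCAM- and 6 to 7 in the interaction, and 8 between fractions. Replicate numbers showed no sign of pairing the samples: deviations of same-numbered libraries correlated between -0.0726 and 0.0406 over 6 pairs of groups. If the 2 libraries of a group are technical, such deviations would not reveal a pairing, so it is left undecided. With a replicate block the members called were 8, 8, 7, 4 and 7 in the 5 comparisons, and 10437 genes in all between fractions of coculture (10473 without it). Under quantile normalization the share of higher genes among all called went from 32.0% to 54.7% with culture in EpCAM+, from 39.9% to 53.4% in the interaction, from 67.9% to 50.8% between fractions in coculture and from 63.1% to 55.2% in monoculture; the median of ratios gave 46.3% and 44.6% for the first pair, 50.2% and 50.8% for the fractions. The unknown depth limits what can be said of genes under about 0.1 FPKM, and 2 libraries a group limit every p-value.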

Other observations

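Cebpb, which codes for a C/EBP factor known to bind the Il6 promoter, differed between the 2 libraries of each coculture group. Its level was 1.79 and 31.6 FPKM in the coculture EpCAM+ libraries and 26.9 and 0.653 FPKM in coculture EpCAM-, while the monoculture libraries held 21.9 and 20.4 FPKM in EpCAM+ and 37.6 and 35.5 FPKM in EpCAM-. Its log2 fold changes, with an SE of 1.39, passed in no comparison of groups. It was chosen after its values were seen. Cytokine genes that the rule for naming did not take also differed by fraction and culture. Il24 was measured in EpCAM+ (1.75 ± 0.116 FPKM in coculture and 3.15 ± 0.406 FPKM in monoculture, SD, n = 2) and was at 0 in all EpCAM- libraries. Tnfsf10, which codes for TRAIL, was at 3.0 FPKM in both coculture EpCAM+ libraries, at 0.75 and 0.824 FPKM in monoculture EpCAM+ (log2 fold change -1.16, limma adjusted p = 1.4e-06) and at most 0.0102 FPKM in EpCAM-. As Tnfsf10 passed the limit of 1 FPKM through coculture EpCAM+ alone, the group where it was high, the result of that test is in part set by the limit. Tslp was at 1.53 and 1.41 FPKM in coculture EpCAM- and rose to 4.19 and 4.29 FPKM in monoculture EpCAM- (log2 fold change 1.09, limma adjusted p = 3.5e-06), with at most 0.391 FPKM in EpCAM+.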
